A study of Mus musculus with 3 samples.

Results

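The genes described here build ribosomes. They are 47 of the 24063 genes in the count table and were taken from a list of symbols: the precursor of ribosomal RNA (rRNA), 8 genes of RNA polymerase I and its initiation factors, 8 proteins of the small nucleolar ribonucleoprotein particles (snoRNPs), 15 factors that process the small and large ribosomal subunits, 6 abundant nucleolar proteins, the factors Myc and Mycn, and 7 non-coding RNAs that host small nucleolar RNAs (snoRNAs). All 47 symbols were found in the table.

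The study asked how gene expression in embryos of NOD mice, an inbred strain prone to autoimmune diabetes, differs from that in C57BL/6 (B6) mice. The embryos were blastocysts, the stage at which an inner cell mass, the future embryo, has formed inside a shell of trophectoderm, the future placenta. Whole blastocyst is the tissue given by the labels, whereas the text of the study describes single inner cell masses obtained by immunosurgery. There was 1 B6 library and there were 2 NOD libraries (NOD 1 and NOD 2). No treatment, transgene or age other than the stage is given for either strain. Because B6 is a single library, a difference between the strains and a property of that library cannot be told apart, and every p value below rests on the spread between the 2 NOD libraries.

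Ribosomes are assembled in the nucleolus. RNA polymerase I transcribes the long rRNA precursor there, snoRNPs of the box C/D and box H/ACA classes modify it, and a series of large complexes folds and cuts it into the RNAs of the small (40S) and large (60S) subunits. The guide RNAs of the snoRNPs are mostly cut from introns, either of genes for ribosome-related proteins or of host RNAs, the Snhg genes and Gas5, whose spliced exons code for no known protein. Early mammalian embryos begin with nucleolus precursor bodies and form working nucleoli during the cleavage stages. The MYC factors are known as activators of many genes of this program.

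The B6 library held 12505685 counts on genes, and the NOD libraries held 33891715 and 36171013. Levels are given in CPM, the counts of a gene divided by those of its library and set to 1e6 counts, after scaling by TMM factors. Where 3 values of a gene follow each other, they are those of B6, NOD 1 and NOD 2 in that order. A floor of 3 counts, the limit that a count of 0 allows, corresponds to 0.220 CPM in B6 and to 0.0908 and 0.0882 CPM in the NOD libraries. Markers of the blastocyst were present. The 7 markers of the inner cell mass summed to 387, 431 and 635 CPM. The 8 markers of the trophectoderm summed to 3038, 1725 and 1582 CPM, and both NOD libraries were below B6 for all 7 that were tested, none of which was called. The 5 markers of primitive endoderm summed to 391, 118 and 158 CPM, of which Gata6 alone made up 385, 91.5 and 130 CPM. Pdgfra (5.50, 23.6 and 24.6 CPM) and Gata4 (0.514, 3.03 and 3.53 CPM) went the other way. Sox17 and Sox7 were near 0. Of the inner cell mass markers, Sox2 was called lower in NOD and Tdgf1 higher. Of the primitive endoderm markers, Gata6 was called lower and Pdgfra higher. Defining markers of other cells were at or near 0: Ptprc and Lyz2 of leukocytes had 0 counts in all 3 libraries, and the summed level of 4 markers each was at most 0.147 CPM for cumulus cells, 1.03 CPM for leukocytes, 1.70 CPM for erythrocytes and 3.24 CPM for fibroblasts. The part of the cell type mixture in the differences below was not tested. In such samples fewer cells of a type and less RNA per cell cannot be told apart.

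The host RNAs were the only group of more than 1 member in which both NOD libraries lay below B6 for every gene, so the sequence around their starts is shown first. RefSeq gave an annotated start for 6 of the 7. Each window holds the 35 bases before that start and the first 15 bases of exon 1 (GRCm38.p6). It is printed 5′ to 3′ on the strand of the gene, and capitals mark the longest unbroken run of at least 5 C or T letters that lies from 5 bases before the start to the end of the window.
Gas5 (chr1:161035131-161035180, + strand): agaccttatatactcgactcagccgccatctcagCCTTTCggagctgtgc
Snhg1 (chr19:8723452-8723501, + strand): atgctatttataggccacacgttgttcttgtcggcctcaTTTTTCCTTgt
Snhg12 (chr4:132308643-132308692, + strand): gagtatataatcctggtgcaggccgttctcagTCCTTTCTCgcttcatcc
Snhg3 (chr4:132353672-132353721, - strand): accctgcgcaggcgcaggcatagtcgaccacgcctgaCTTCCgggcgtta
Snhg5 (chr9:88522883-88522932, - strand): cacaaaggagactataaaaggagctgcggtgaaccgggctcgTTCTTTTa
Snhg8 (chr3:123508322-123508371, - strand): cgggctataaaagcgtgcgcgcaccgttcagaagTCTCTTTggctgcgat
A pyrimidine run at the start is known from genes of the translation machinery, including ribosomal proteins and several snoRNA hosts. All 6 host RNAs with an entry held such a run, from 5 letters in Snhg3 to 9 in Snhg1 and Snhg12, although a further RefSeq start of Gas5 held none. Of the 10710 genes tested for expression that have an entry, 38.8% held one. Of the 32 protein-coding members with an entry, 10 did (31.2%). The run was looked for on the strand of the gene only and after the values of the host RNAs had been seen, and it is a description of the letters in these windows.

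Of the 47 members, 2 were called higher in NOD than in B6, against 10.3% of the 14456 genes tested, and 7 were called lower, against 7.39%. A gene was called at a Benjamini-Hochberg adjusted p under 0.05 in edgeR's quasi-likelihood test together with at least a 2-fold change. Higher in NOD were Polr1c and Wdr43, a subunit of RNA polymerase I and a factor of the small subunit. Lower were the rRNA precursor Rn45s, the snoRNP protein Gar1, the processing factors Nat10 and Pes1, the nucleolar protein Tcof1 and the host RNAs Snhg3 and Snhg12. The other 38 were not called, among them Ebna1bp2, which reached an adjusted p of 0.0446 (edgeR) with a change just under 2-fold. Both NOD libraries were above B6 for 14 members, against 45.3% of all genes tested, and both were below B6 for 24, against 39.4%. An unadjusted p under 0.05 was reached by 23 members, against 39.9% of all genes. The median log2 fold change of the members (NOD minus B6) was -0.31, and -0.30 without Rn45s, where the median of all genes tested was 0.26. For the 39 protein-coding members it was -0.20. Most members are above 10 CPM. The 8467 genes with a mean of at least 10 CPM had a median of 0.08, with 14.0% called higher and 10.2% lower. With NOD 1 alone the median of the members was -0.22, and with NOD 2 alone it was -0.54. None of the 9 calls was made by limma-voom, where the smallest adjusted p of a member was 0.0501, or by edgeR without a filter on low counts, where it was 0.0649. Gar1, Pes1 and Snhg3 were also not called with upper-quartile scaling.

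**Figure D1:**
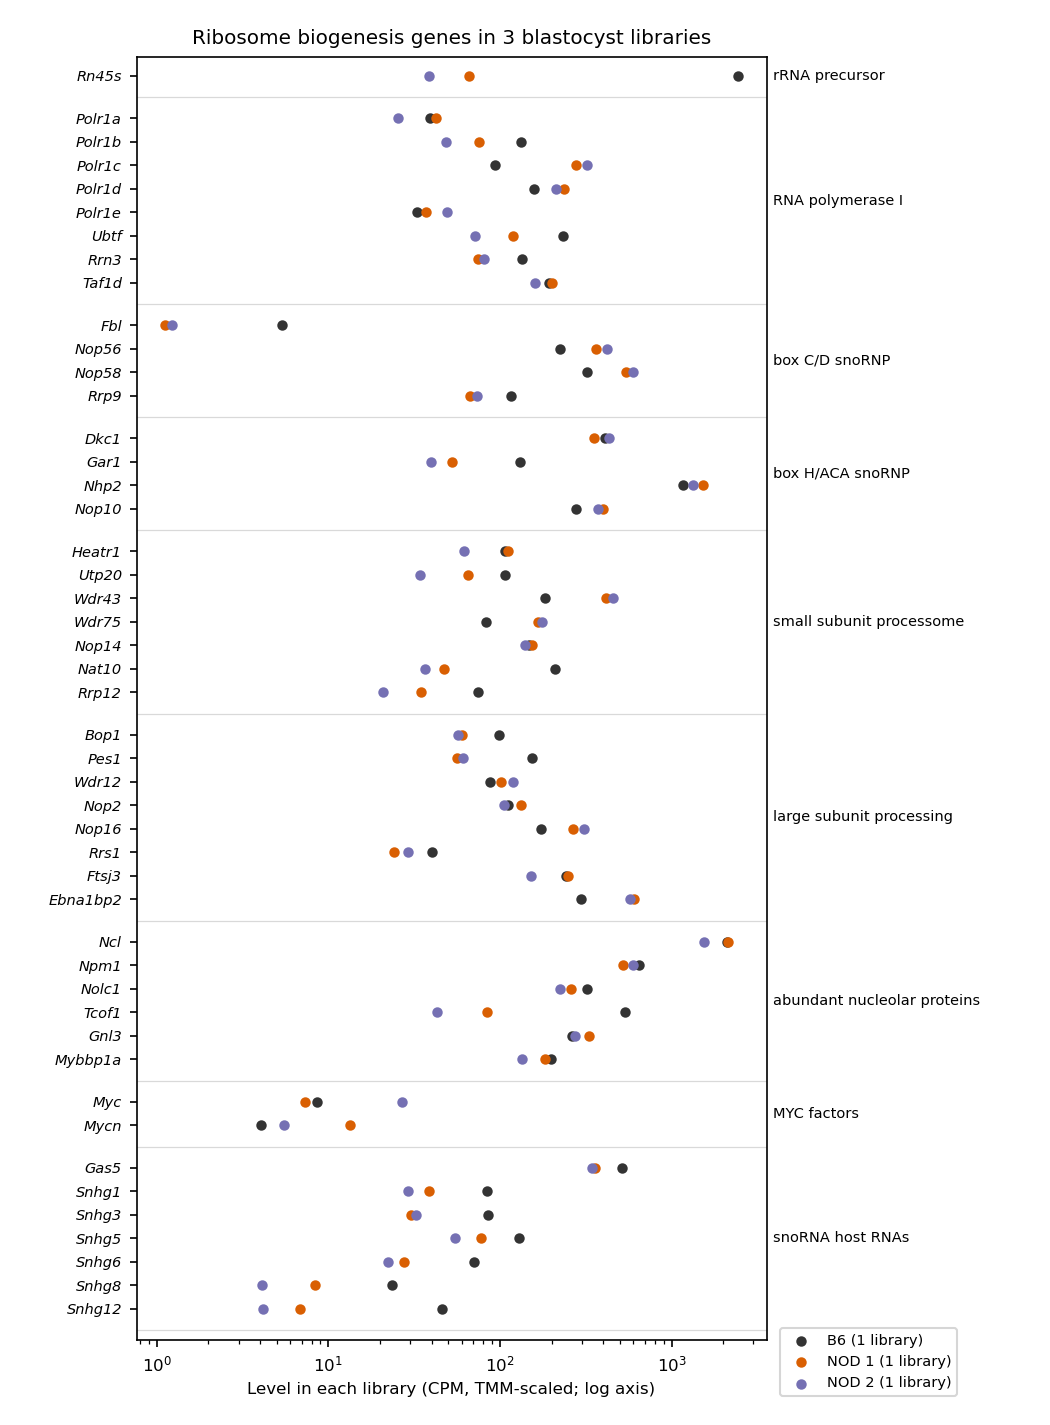
Level of each of the 47 genes in each library, in CPM on a log axis, grouped by role, with 1 point per library (B6 black, NOD 1 orange, NOD 2 violet). Rn45s falls from 2435 CPM in B6 to 65.8 and 38.7 CPM in NOD, and in each of the 7 host RNAs the B6 point lies to the right of both NOD points.

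Rn45s is the table's entry for the 45S precursor that is cut into the RNAs of both subunits (NR_046233, mm10 chr17:39842997-39848829). Genomes carry many near-identical copies of this gene, and how reads with several matches were treated is not given in the sources used here. Its counts were 33174 in B6 and 2176 and 1317 in NOD, or 2435, 65.8 and 38.7 CPM. Both NOD libraries lay far below B6, which was 46.6-fold above the NOD mean. The log2 fold change was -5.54 (SE 0.37, edgeR adjusted p = 0.0190), the widest difference among the members. Rn45s took 0.265% of all counts in B6 and 0.00642% and 0.00364% in NOD.

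The kit used here primes cDNA from poly(A) tails, which the 45S precursor is not known to carry as a rule. A set of other RNAs made without a tail was therefore read, after the value of Rn45s had been seen. Rpph1, the RNA of RNase P, had 849, 214 and 18 counts, and Terc, the telomerase RNA, had 82, 14 and 19. Rmrp, the RNA of RNase MRP, had 25, 0 and 3 counts, and the vault RNA Vaultrc5 had 148, 123 and 132. All 4 were highest in B6, the library with the fewest counts in total, but none was called (edgeR adjusted p = 0.0812 for Rpph1, 0.0647 for Terc, 0.167 for Rmrp and 0.145 for Vaultrc5). The snoRNA genes, described below, were not part of this set and did not all share this direction. Of the 45 tested, both NOD libraries were below B6 for 26 and above it for 13. Over all genes tested these shares were 39.4% and 45.3%. The part of unequal capture of untailed RNA in the difference of Rn45s was not tested.

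Of the 8 genes of RNA polymerase I, 1 was called higher, against 10.3% of all genes, and none lower, with a median log2 fold change of -0.15. An unadjusted p under 0.05 in edgeR was reached by 4 of them, against 39.9% of all genes. Polr1c, a small subunit that RNA polymerase I shares with RNA polymerase III (chr17:46243920-46248045), was at 93.5, 277 and 322 CPM. Both NOD libraries were well above B6, by 3.21-fold on average (log2 fold change 1.68, SE 0.27, edgeR adjusted p = 0.0275). Polr1d, the other assembly subunit shared by both polymerases, was at 159, 236 and 213 CPM and was not called (0.50, SE 0.24, edgeR adjusted p = 0.195). The large catalytic subunits did not share this direction. Polr1a, the largest subunit, was at 39.1, 42.2 and 25.3 CPM, so that B6 lay between the NOD libraries. Polr1b, the second largest, was at 133, 75.0 and 48.7 CPM (-1.11, SE 0.37, edgeR adjusted p = 0.0958). Per length, on the FPKM scale, the level of Polr1c was 2.16 times that of Polr1b in B6 and 11.4 and 20.4 times in NOD. Polr1c against Polr1d was at 0.407, 0.814 and 1.05, and Polr1a against Polr1b at 0.192, 0.369 and 0.341. Pairs compared per length, here and below, were chosen after the values had been seen.

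The initiation factors gave no call. Ubtf, which binds and opens rRNA genes, was at 234, 119 and 71.2 CPM (-1.30, SE 0.37, edgeR adjusted p = 0.0722). Rrn3, which links the polymerase to its promoter factors, was at 135, 74.0 and 80.4 CPM (-0.80, SE 0.28, edgeR adjusted p = 0.105). For both, the NOD libraries lay below B6 without reaching the threshold. Taf1d, a subunit of the promoter selectivity factor, was at 192, 201 and 160 CPM, with 24.5% of its words shared with another gene, and Polr1e, a polymerase-associated subunit, at 32.8, 37.2 and 49.4 CPM.

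The box C/D snoRNP, which places methyl groups on rRNA, had no called member among its 4, where 17.7% of all genes were called in either direction. Nop56 and Nop58, the paired scaffold proteins, were at 223 and 320 CPM in B6, at 365 and 546 in NOD 1 and at 418 and 596 in NOD 2. Both NOD libraries were above B6 for the pair, with log2 fold changes of 0.81 and 0.84 (SE 0.24 and 0.22, edgeR adjusted p = 0.0745 and 0.0608). Their ratio to each other hardly moved: per length, Nop56 was at 0.728 of Nop58 in B6 and at 0.697 and 0.731 in NOD. Of the words in the Nop56 transcript, 37.6% are shared with other genes, so its level is uncertain. Rrp9, the protein of the U3 particle, was at 116, 67.0 and 73.7 CPM (edgeR adjusted p = 0.137). Fbl, the methyltransferase fibrillarin, had only 73, 37 and 42 counts, or 5.36, 1.12 and 1.23 CPM. It is the lowest of the 4 by far, and 73.0% of the 50-base words in its transcript are shared with other genes, Tulp4 most of all, so its level is uncertain.

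The box H/ACA snoRNP, which converts uridines of rRNA to pseudouridine, had 1 call among its 4 proteins, where 17.7% of all genes were called. Gar1, which helps the particle to release its product (chr3:129824912-129831396), was at 130, 52.6 and 39.9 CPM. Both NOD libraries were below B6, which was 2.82-fold above their mean (log2 fold change -1.49, SE 0.33, edgeR adjusted p = 0.0455). The other proteins of the particle were not called. Dkc1, the pseudouridine synthase, was at 408, 355 and 430 CPM, with B6 between the NOD libraries. Nhp2 was at 1169, 1530 and 1336 CPM, and Nop10 at 277, 399 and 374 CPM. Per length, Gar1 was at 0.0882 of the level of Nhp2 in B6 and at 0.0272 and 0.0236 in NOD, and at 0.705 of Dkc1 in B6 and at 0.327 and 0.204 in NOD. Nop10 against Nhp2 was at 0.323, 0.354 and 0.381. The pairs were chosen after the values had been seen.

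**Figure D2:**
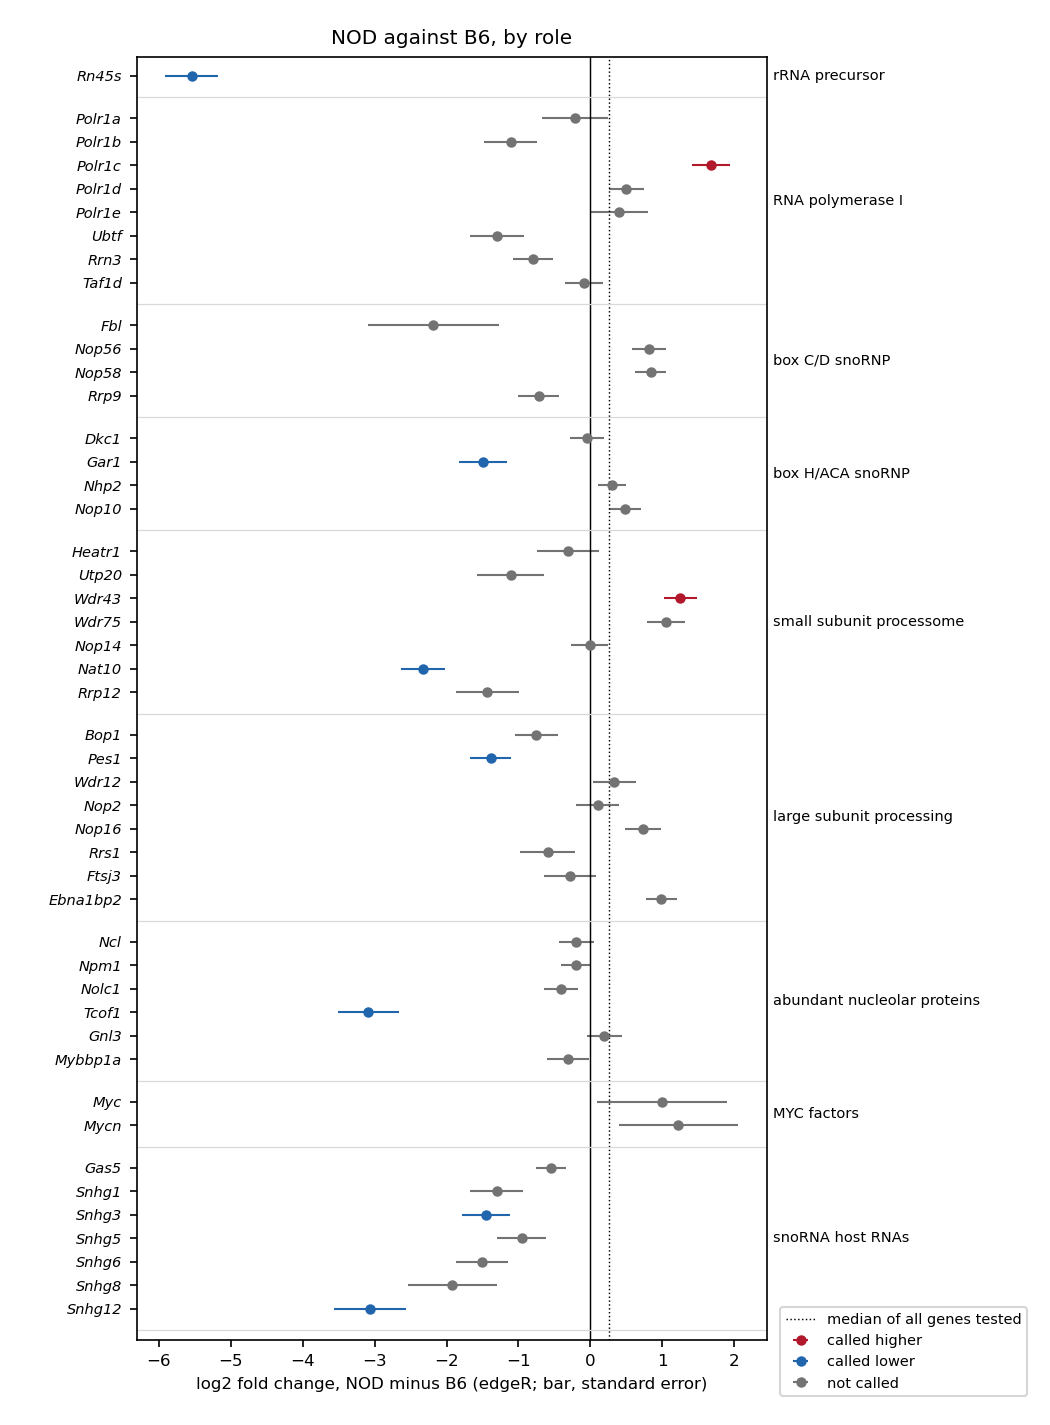
Log2 fold change of NOD against B6 for each of the 47 genes by role (edgeR; bars, standard error; red, called higher; blue, called lower; grey, not called). The dotted line is the median of all genes tested (0.26). Polr1c and Wdr43 are the called genes on its right, and 7 genes down to Rn45s at -5.54 are called on its left.

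The small subunit processome is the complex that folds the first part of the precursor. Of its 7 factors, 1 was called higher and 1 lower, against 10.3% and 7.39% of all genes, with a median log2 fold change of -0.31. Wdr43 (chr17:71616215-71659031) was at 182, 413 and 456 CPM, which is 2.38-fold higher in NOD (1.25, SE 0.23, edgeR adjusted p = 0.0351). Wdr75, which works in the same t-UTP subcomplex, was at 82.9, 167 and 177 CPM and missed the threshold (1.05, SE 0.27, edgeR adjusted p = 0.0582). Per length the pair kept nearly the same ratio, 1.66, 1.87 and 1.95. Nat10, an RNA acetyltransferase that acts on 18S rRNA (chr2:103721259-103761250), was at 210, 47.3 and 36.6 CPM. B6 was 5.01-fold above the NOD mean (-2.32, SE 0.30, edgeR adjusted p = 0.0231).

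The longer genes of the processome separated the NOD libraries from each other as well. Heatr1 was at 107, 111 and 61.3 CPM, and Utp20 at 108, 65.6 and 34.3 CPM (-1.11, SE 0.47, edgeR adjusted p = 0.150). Rrp12, an export factor of the small subunit, was at 74.8, 34.6 and 20.8 CPM (-1.43, SE 0.44, edgeR adjusted p = 0.0808). Nop14 was at 148, 154 and 140 CPM, nearly level across the libraries.

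Of the 8 large subunit factors, 1 was called, against 17.7% of all genes called in either direction, and it was lower in NOD. Pes1, Bop1 and Wdr12 form the PeBoW complex, which acts in processing of the large subunit precursor. Pes1 (chr11:3963975-3980004) was at 154, 56.2 and 61.1 CPM (-1.39, SE 0.28, edgeR adjusted p = 0.0393). The NOD libraries lay close together and B6 was 2.62-fold above them. Bop1 was at 98.8, 60.3 and 57.2 CPM (edgeR adjusted p = 0.139), and Wdr12 at 87.5, 101 and 119 CPM (edgeR adjusted p = 0.431). Per length, Pes1 was at 1.77 times Wdr12 in B6 and at 0.561 and 0.516 of it in NOD. Against Bop1 it moved less, from 1.32 times in B6 to 0.792 and 0.908 in NOD. Of the words in the Pes1 transcript, 23.6% are shared with other genes, mostly the annotated copy Gm5910.

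Ebna1bp2, an early factor of the large subunit, was at 297, 603 and 573 CPM, 1.98-fold higher in NOD (0.98, SE 0.22, edgeR adjusted p = 0.0446), and passed the p value but not the limit on fold change. Nop16 was at 174, 265 and 311 CPM (0.73, SE 0.25, edgeR adjusted p = 0.103). Both NOD libraries were above B6 for these genes. Rrs1, a factor of 5S RNA assembly, was at 40.1, 24.1 and 29.2 CPM, below B6 in both. For Nop2 (111, 133 and 106 CPM) and Ftsj3 (243, 248 and 152 CPM), methyltransferases of the large subunit pathway, B6 lay between the NOD libraries.

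Among the abundant nucleolar proteins, 1 of 6 was called, near the 17.7% of all genes called in either direction, and the median log2 fold change was -0.26. Tcof1, the treacle protein that supports transcription by RNA polymerase I, was at 536, 83.6 and 42.8 CPM. B6 was 8.49-fold above the NOD mean (-3.09, SE 0.43, edgeR adjusted p = 0.0241), the widest difference among the protein-coding members. Nolc1, a nucleolar phosphoprotein of related sequence and function, was at 321, 260 and 224 CPM and was not called (-0.41, SE 0.23, edgeR adjusted p = 0.253). Per length, Tcof1 was at 1.33 times Nolc1 in B6 and at 0.255 and 0.151 of it in NOD.

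Ncl, nucleolin, was the highest of the 6 in CPM at 2110, 2126 and 1549, and B6 lay between the NOD libraries. Npm1, nucleophosmin, was at 645, 524 and 595 CPM (-0.20, SE 0.21, edgeR adjusted p = 0.489), with 40.9% of its words shared with annotated copies. Gnl3, nucleostemin, was at 265, 332 and 274 CPM, and Mybbp1a at 197, 183 and 134 CPM. None of these 4 was called.

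Both MYC factors were low and uneven. Myc was at 8.59, 7.35 and 26.9 CPM, and Mycn at 4.04, 13.3 and 5.53 CPM. Each was highest in a different NOD library. The log2 fold changes were 0.995 (SE 0.90, edgeR adjusted p = 0.432) and 1.22 (SE 0.83, edgeR adjusted p = 0.315). Without NOD 2, the value for Myc was -0.22 and that for Mycn 1.72, and without NOD 1 they were 1.66 and 0.47. The E-box CACGTG, which reads the same on both strands and is the preferred site of MYC, was present in the promoters of 6 of the 38 members with a RefSeq entry (15.8%), from 250 bases before to 50 after the start: Mybbp1a, Nop2, Pes1, Rrn3, Utp20 and Wdr43. It was present for 11.5% of the genes tested and in 7.15% of all promoters of this length. None of the 6 host RNAs with an entry held it. These letters alone do not mark a bound site.

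The 7 host RNAs lay below B6 in both NOD libraries without exception, where 39.4% of all genes did. Their median log2 fold change was -1.45, against 0.26 for all genes tested and 0.08 for genes with a mean of at least 10 CPM. Their summed level went from 954 CPM in B6 to 549 and 493 CPM. All 7 had an unadjusted p under 0.05 in edgeR, as 39.9% of all genes did, and 2 were called lower, against 7.39% of all genes.

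Snhg12, which holds snoRNAs of both classes in its introns, was at 45.8, 6.81 and 4.14 CPM, and B6 was 8.36-fold above the NOD mean (-3.06, SE 0.50, edgeR adjusted p = 0.0283). Snhg3 was at 85.6, 30.3 and 32.2 CPM, 2.74-fold higher in B6 (-1.45, SE 0.33, edgeR adjusted p = 0.0474). The gene model Gm17300 shares 68.0% of the words of Snhg3, so their reads could not be fully told apart. The other host RNAs missed the threshold. Snhg6 was at 70.9, 27.7 and 22.3 CPM (-1.50, SE 0.36, edgeR adjusted p = 0.0518), and Snhg1 at 84.0, 38.8 and 29.2 CPM (-1.30, SE 0.36, edgeR adjusted p = 0.0680). Snhg8 was at 23.6, 8.35 and 4.11 CPM (-1.92, SE 0.61, edgeR adjusted p = 0.0890). Snhg5 was at 128, 77.6 and 54.9 CPM (-0.95, SE 0.34, edgeR adjusted p = 0.109). Gas5, a transcript known from growth-arrested cells and the highest of the 7 in CPM, was at 516, 359 and 346 CPM and had the smallest change (-0.55, SE 0.21, edgeR adjusted p = 0.120).

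**Figure D3:**
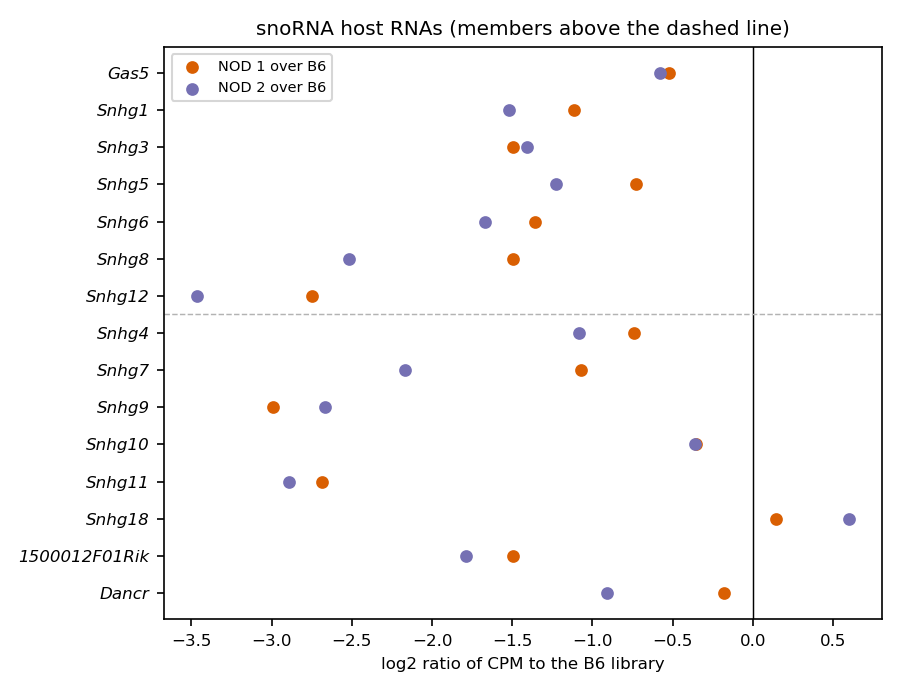
Log2 ratio of each NOD library (orange, NOD 1; violet, NOD 2) to the B6 library, from CPM, for the 7 member host RNAs above the dashed line and the 8 further host RNAs below it. All points but those of Snhg18 lie left of 0, from Gas5 near -0.5 to Snhg12 near -3.

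Another 8 host RNAs outside the 47 were read in the same fit. Of these, 7 were below B6 in both NOD libraries, against 39.4% of all genes, and 3 were called lower, against 7.39%, with a median log2 fold change of -1.21. Snhg9 was at 42.1 CPM in B6 and at 5.29 and 6.61 in NOD (-2.82, SE 0.44, edgeR adjusted p = 0.0269). Snhg11 was at 155, 24.1 and 20.9 CPM (-2.78, SE 0.32, edgeR adjusted p = 0.0212). The third was 1500012F01Rik, now named Zfas1 (-1.64, SE 0.35, edgeR adjusted p = 0.0426). Snhg18 was the exception at 4.18, 4.63 and 6.35 CPM. Over all 15 host RNAs, 14 were below B6 in both NOD libraries and 5 were called lower. Of all genes with a mean of at least 10 CPM, 42.9% were below B6 in both and 10.2% were called lower.

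Most host RNAs are typed as non-coding in the table, whereas Snhg11 and 1500012F01Rik are typed as protein-coding. Of the 696 non-coding RNAs tested without the hosts, 40.4% were below B6 in both NOD libraries, with a median log2 fold change of 0.54. Among the 119 of these with a mean of at least 10 CPM, 59.7% were, with a median of -0.69, and 23 were called lower (19.3%). Whether the host RNAs differ from other non-coding RNAs of their level was not tested.

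The snoRNAs themselves are too short to be measured well by this assay. Of the 119 snoRNA genes in the table, 29 had 0 counts in every library and 45 were tested. Together the 119 genes held 1216, 1383 and 1052 counts, or 89.2, 41.8 and 30.9 CPM. Both NOD libraries were below B6 for 26 of the 45 tested, against 39.4% of all genes, and above it for 13, against 45.3%. The median log2 fold change was -0.71. Against 7.39% of all genes, 1 was called, Snord35a, which was lower and was named after its value was seen. The spans of 10 members, among them Gas5, Ncl, Nop56 and Snhg12, hold 18 of these snoRNA genes. Snord22, inside Snhg1, had 42, 120 and 17 counts, and the 4 snoRNAs inside Snhg12 together had 21, 31 and 19. Counts this low give no measure of the mature guides.

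Levels were compared between members per length, as FPKM. Nhp2 was the highest member in all 3 libraries, at 1171 FPKM in B6, 1533 in NOD 1 and 1339 in NOD 2. In B6 it was followed by Npm1 (458 FPKM), Rn45s (417 FPKM) and Nop10 (378 FPKM). In the NOD libraries Nop10 and Npm1 came next, Nop10 at 543 and 509 FPKM and Npm1 at 372 and 422 FPKM, and Rn45s was 39th and 41st of the 47. Nop10 and Npm1 thus changed places between the strains, by less than 2-fold. Mycn (1.56, 5.15 and 2.13 FPKM) and Fbl (4.67, 0.975 and 1.08 FPKM) were among the 3 lowest in every library.

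The NOD libraries differed from each other by gene length, and the long members differed in the same direction as long genes in general. Of the 7 members with a listed length of at least 4500 bases, all were lower in NOD 2 than in NOD 1, with log2 ratios from -0.97 to -0.46 and a median of -0.77. The 18 members from 1500 to under 3000 bases had a median of 0.10, and the 8 members from 3000 to under 4500 bases had one of -0.29. Among all 8108 genes with at least 10 CPM in NOD, the medians of these classes were -0.28, 0.08 and -0.07. The shortest class went the other way: the 14 members under 1500 bases had a median of -0.25, with 10 lower in NOD 2, where all genes of that length had a median of 0.08. Over all 47 members, the log2 ratio of NOD 2 to NOD 1 had a correlation with log10 length of Pearson r = -0.18 and Spearman rho = -0.29, and over the 39 protein-coding members of r = -0.40 and rho = -0.49, a description across genes of the same libraries. For the difference of NOD from B6 the values over the protein-coding members were r = -0.28 and rho = -0.37. Over the 8108 genes, the log2 ratio of NOD 2 to NOD 1 had r = -0.21 and rho = -0.26. For the difference of NOD from B6 these genes had r = -0.19 and rho = -0.26. The medians of small groups moved with the library: with NOD 1 alone they were 0.09 for RNA polymerase I, 0.05 for the small subunit processome and 0.12 for the large subunit factors, and with NOD 2 alone -0.43, -0.78 and -0.25. Of the 9 called members, Rn45s and Tcof1 belong to the longest class, and Gar1, Snhg3, Snhg12 and Polr1c to the shortest. The median log2 fold change of NOD against B6 in the shortest class was -1.13 for the members and 0.61 for all genes. In the longest class it was -1.11 for the members and -0.33 for all genes. The part of length in these differences was not tested.

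**Figure D4:**
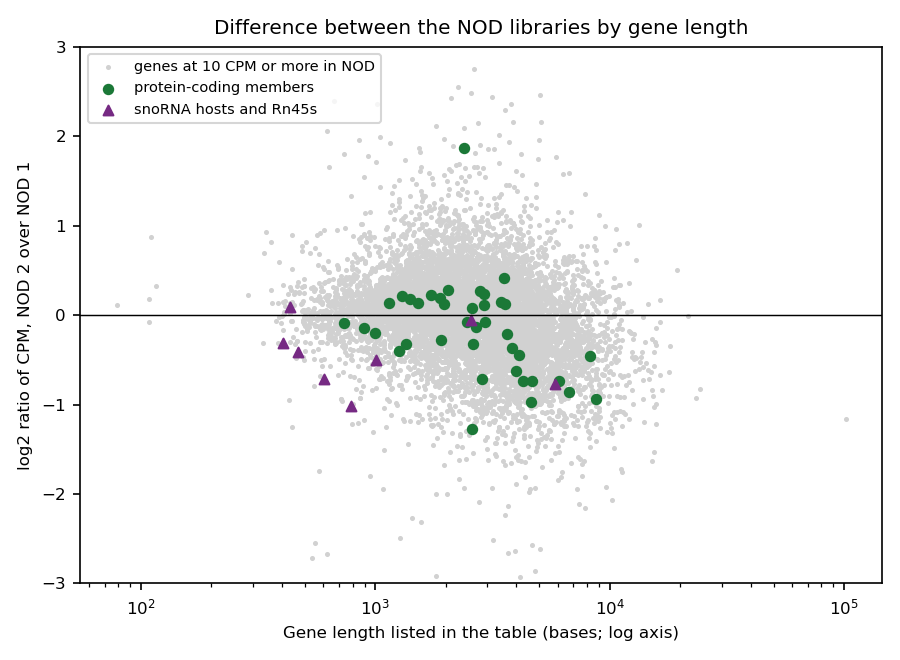
Log2 ratio of CPM in NOD 2 to NOD 1 against the listed length of each gene in bases (log axis), for genes with at least 10 CPM in NOD (grey), protein-coding members (green) and host RNAs with Rn45s (violet). All 7 members of at least 4500 bases lie below 0, with a median of -0.77.

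Genes that work with the members were read from lists of the pathway. Of 173 listed, 166 were in the table and all of these were tested. In NOD, 25 were called higher, against 10.3% of all genes tested, and 11 lower, against 7.39%. The median log2 fold change was 0.18, between the 0.26 of all genes tested and the 0.08 of genes with a mean of at least 10 CPM. Of the latter genes, 14.0% were called higher and 10.2% lower. An unadjusted p under 0.05 in edgeR was reached by 77, against 39.9% of all genes.

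Among 13 further polymerase I factors, 1 was called in each direction. Taf1b, a promoter factor, was at 22.2, 63.4 and 73.0 CPM (1.62, SE 0.38, edgeR adjusted p = 0.0493). Ttf1, the termination factor, was at 78.5, 22.9 and 17.8 CPM (-1.95, SE 0.37, edgeR adjusted p = 0.0354). Among 51 small subunit factors, 11 were called higher and 2 lower, against the same 10.3% and 7.39% of all genes, with a median of 0.36. Dcaf13, a processome protein, was at 82.3, 289 and 435 CPM (2.14, SE 0.36, edgeR adjusted p = 0.0297), and the helicase Ddx52 at 59.4, 175 and 234 CPM (1.78, SE 0.32, edgeR adjusted p = 0.0336). The helicase Ddx47 (-1.16, SE 0.26, edgeR adjusted p = 0.0467) and the 40S assembly factor Bysl (-1.09, SE 0.25, edgeR adjusted p = 0.0468) were the pair called lower.

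Among 55 large subunit factors, 5 were called higher and 4 lower, close to the 10.3% and 7.39% of all genes, with a median of -0.03. Rpf1, a processing factor, was at 36.9, 203 and 244 CPM (2.60, SE 0.30, edgeR adjusted p = 0.0215), and the 60S export adaptor Nmd3 at 82.8, 361 and 499 CPM (2.38, SE 0.32, edgeR adjusted p = 0.0235). Pelp1, of a complex that acts late in the maturation of the large subunit, was at 239, 83.4 and 53.6 CPM (-1.80, SE 0.35, edgeR adjusted p = 0.0366). Noc2l was at 292, 84.9 and 83.6 CPM (-1.79, SE 0.24, edgeR adjusted p = 0.0231).

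The list of the exosome, which trims the 3′ ends of rRNA precursors, also holds its cofactors and the 5′ exonuclease Xrn2, and had 5 of 15 genes called higher and none lower, against 10.3% and 7.39% of all genes tested, with a median of 0.68. Mphosph6, an exosome cofactor, was at 16.3, 117 and 174 CPM (3.16, SE 0.43, edgeR adjusted p = 0.0234), and the core subunit Exosc4 at 76.2, 266 and 218 CPM (1.67, SE 0.28, edgeR adjusted p = 0.0303). Of the 12 genes of RNase MRP and RNase P, 2 were higher: Rpp38 at 33.0, 176 and 181 CPM (2.43, SE 0.30, edgeR adjusted p = 0.0219) and Rpp30 at 132, 327 and 390 CPM (1.44, SE 0.26, edgeR adjusted p = 0.0334). Of 12 genes of snoRNP assembly and the Cajal body, 1 was called in each direction. Znhit3, which acts in box C/D assembly, was at 187, 714 and 700 CPM (1.92, SE 0.22, edgeR adjusted p = 0.0212). Coil, the scaffold of Cajal bodies, was at 186, 33.5 and 26.1 CPM (-2.64, SE 0.32, edgeR adjusted p = 0.0216).

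**Figure D5:**
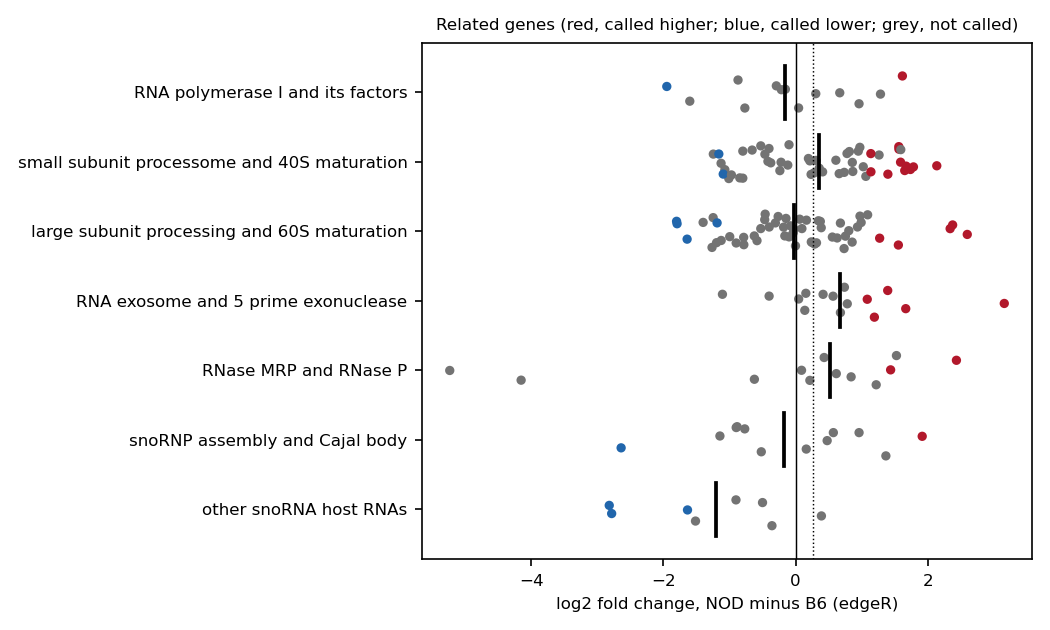
Log2 fold change of NOD against B6 (edgeR) for the 166 related genes by list, 1 point per gene (red, called higher; blue, called lower; grey, not called). Thick bars are list medians and the dotted line is the median of all genes tested (0.26). The exosome list has its median at 0.68, and the further host RNAs at -1.21.

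Reads were counted on both strands together, so reads of genes that overlap could not be told apart. Polr1e, Taf1d, Nop56, Dkc1, Nhp2, Bop1 and Gnl3 overlap a gene on the opposite strand. None of these was called. Ebna1bp2 overlaps D4Ertd617e on its own strand. For Bop1 the partners were Mroh1, with 1512, 450 and 361 counts, and Scx, with 16, 497 and 478. The levels of these 8 members are uncertain to that extent.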

How the data were processed

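Gene expression was measured by low-input RNA-Seq (SMART-Seq V4, single-end reads of 50 bases) in 3 blastocyst libraries, 1 of B6 and 2 of NOD, grouped by the strain in their labels. The values are raw counts per gene that the authors deposited. The authors amplified cDNA by PCR, used STAR for alignment to mm10 and HOMER for counting on exons of RefSeq genes, on both strands, with 1 transcript kept per gene. The submitters' processing notes name STAR 2.2.0c and CASAVA 1.8.2, and the methods of the study name another STAR version.

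Counts were analysed in R 4.3.3 with edgeR 4.0.16 (filterByExpr, minimum count 10; TMM; trended dispersion; quasi-likelihood test) over 14456 of 24063 genes, with Benjamini-Hochberg adjustment over all of them. The median biological coefficient of variation was 0.374, with 1 residual degree of freedom and 3.78 prior degrees of freedom. A single gene could reach no exact permutation p below 0.333. Standard errors are log2 fold changes divided by the square root of F. CPM and FPKM were computed from effective library sizes and listed lengths. Shared words are stretches of 50 bases found in GENCODE M21 transcripts of other genes. Promoter sequence is from RefSeq (GRCm38.p6). DESeq2 1.42.0 and limma 3.58.1 served as alternatives, and figures were drawn with matplotlib 3.10.9 in Python 3.11.15.

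The members and lists were chosen with earlier results of these data known. All members are reported. In each related list, up to 2 called genes in each direction were named, those of widest change whose mean reached 10 CPM and whose NOD libraries both lay on 1 side of B6. 1500012F01Rik, Snhg18, the untailed RNAs and Snord35a fall outside that rule, and their values were known when they were named. The labels do not say whether the NOD libraries come from separate embryos or litters, so p values measure the spread between these libraries, which may be technical. Reads carry no molecular identifiers, so floors cover counting error only.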

Additional observations from a re-analysis of the deposited data

How the results depend on the processing

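Calls of members depended on the test and on the filter for low counts more than on the scaling. Of the 2 members called higher, none was called without a filter on low counts and none by limma-voom. The count of members called lower, 7 in the main test, was 0 in those settings, 4 with upper-quartile factors (without Gar1, Pes1 and Snhg3) and 14 of the 47 by the DESeq2 test. Over all 14456 genes, lower calls moved the same way, from 1069 to 701 with upper-quartile factors and 1887 by DESeq2, and higher calls from 1483 to 1016 and 2365. An unadjusted p under 0.05 was reached by 21 members without the filter (smallest adjusted p 0.0649) and by 21 by limma-voom (smallest adjusted p 0.0501), where the main test gave 23. Over all genes these settings made 0 calls too, with 5568 and 3924 genes under an unadjusted 0.05. Of the related genes, 25 were called higher and 11 lower. The count of higher calls was 15 with total counts only, 14 with upper-quartile factors, 0 without the filter and 0 by limma-voom, and the count of lower calls was 7 with upper-quartile factors, 0 without the filter, 20 by DESeq2 and 0 by limma-voom. With total counts only, the median of all genes moved from 0.26 to 0.07 and that of the related genes from 0.18 to -0.011. The share of lower calls over all genes then rose, from 1483 higher and 1069 lower to 1037 higher and 1132 lower.

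Snhg6 was called with DESeq2 size factors (edgeR adjusted p = 0.0471) and with total counts only (0.0497). Nop14 turned from -0.01 to 0.015 without the filter, and Nop2 from 0.10 to -0.079 with total counts only. The 7 host RNAs were below 0 in every setting run, the least negative from -0.74 to -0.52, and 0 to 5 of them were called. The median of the members was -0.54 without NOD 1 and -0.22 without NOD 2, and that of the related genes was 0.22 and 0.14. These are values with no test, since 1 library against 1 leaves no residual degrees of freedom. Leaving out Rn45s changed no call of another member. The causes were not tested. No paired analysis was possible because there was 1 B6 library. The B6 library had the fewest counts and so the highest floor.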
